A study of Mus musculus with 12 samples.

Results

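The pentose phosphate pathway is represented here by 6 mouse genes, Tkt, Taldo1, Pgd, Pgls, Rpia and Rpe, out of the 35976 genes counted in retinal mRNA. The group was selected on measured values of these same libraries, because the difference in Tkt between OIR (oxygen-induced retinopathy) and normoxia was not the same in the 2 genotypes. That contrast, and the comparisons of 2 groups that make it up, are therefore given for Tkt as values with no test. The libraries fall into 4 groups of 3. WT normoxia and WT OIR are retinas of C57BL/6 pups at postnatal day 15. The OIR pups had been kept in 75% oxygen from postnatal day 7 to 12 and then for 3 days in room air, and the controls stayed at 21% oxygen. Casp1 KO normoxia and Casp1 KO OIR are retinas labelled as coming from Caspase1 knockout mice, also in normoxia or at 3 days after OIR. The age and oxygen exposure of those pups, the allele, and the number of animals behind each library are not given in the sources used here. Pups of both sexes were used, and nothing states that the 3 libraries of a group came from separate animals, so p-values measure the spread between these libraries only.

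The pathway branches off glycolysis at glucose 6-phosphate. Its oxidative branch makes NADPH, the reducing power for glutathione recycling and lipid synthesis, and ends in ribulose 5-phosphate. Its non-oxidative branch shuffles carbons reversibly between pentose phosphates and the glycolytic intermediates fructose 6-phosphate and glyceraldehyde 3-phosphate, and supplies ribose for nucleotides. The retina, and the photoreceptors above all, combine a high rate of glycolysis with heavy exposure to light and oxygen, and NADPH also serves there in the reduction of retinal in the visual cycle. In the OIR model, high oxygen stops and reverses the growth of retinal vessels, and the return to room air leaves the poorly perfused retina in relative hypoxia.

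In the oxidative branch, Pgls encodes 6-phosphogluconolactonase, and Pgd the 6-phosphogluconate dehydrogenase that makes NADPH. In the non-oxidative branch, Rpia (ribose 5-phosphate isomerase) and Rpe (ribulose-phosphate 3-epimerase) interconvert the pentose phosphates. Tkt (transketolase, a thiamine diphosphate enzyme) and Taldo1 (transaldolase) move short carbon units between sugars. The gene Rpe is not to be confused with the retinal pigment epithelium, which shares its abbreviation.

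In the GENCODE vM21 annotation of GRCm38, Tkt occupies 30548359 to 30574720 of chromosome 14 (plus strand). Its longest transcript has 14 exons, and the microRNA gene Mir3076 overlaps it on the same strand. Taldo1 (chromosome 7, 141392199 to 141402968, plus strand) has 9 exons and no overlapping gene. Pgls is on chromosome 8 (71592176 to 71601092, plus strand, overlapping Fam129c), Pgd on chromosome 4 (149149991 to 149166771, minus strand), Rpia on chromosome 6 (70765720 to 70792232, minus strand) and Rpe on chromosome 1 (66700831 to 66719805, plus strand, overlapping Kansl1l on the other strand). Whether the counting used strand is not given in the sources used here, so reads of Pgls and Rpe could include reads of those neighbours.

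The promoters of Tkt and Taldo1, the partner enzymes that move carbon units between sugars, are shown because their OIR difference was higher in Casp1 KO than in WT by more than that of Pgls, Pgd, Rpia or Rpe. Each runs from 250 bases before to 50 bases after the transcription start in RefSeq (GRCm38.p6), 5′ to 3′ on the strand of the gene. Tkt is chr14:30548881-30549180 on the plus strand, and Taldo1 is chr7:141391910-141392209 on the plus strand. The RefSeq start of Tkt lies inside the GENCODE gene, downstream of its first annotated base. Capitals mark matches, on either strand, to TGACNNNGC, the core of the antioxidant response element, and to ACGTG or GCGTG, the core of the hypoxia response element.
Tkt: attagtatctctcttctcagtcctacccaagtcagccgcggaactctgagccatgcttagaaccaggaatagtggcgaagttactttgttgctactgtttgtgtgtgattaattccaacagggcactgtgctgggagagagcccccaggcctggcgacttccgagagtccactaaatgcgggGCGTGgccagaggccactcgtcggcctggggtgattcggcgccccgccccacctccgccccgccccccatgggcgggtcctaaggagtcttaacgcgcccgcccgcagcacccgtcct
Taldo1: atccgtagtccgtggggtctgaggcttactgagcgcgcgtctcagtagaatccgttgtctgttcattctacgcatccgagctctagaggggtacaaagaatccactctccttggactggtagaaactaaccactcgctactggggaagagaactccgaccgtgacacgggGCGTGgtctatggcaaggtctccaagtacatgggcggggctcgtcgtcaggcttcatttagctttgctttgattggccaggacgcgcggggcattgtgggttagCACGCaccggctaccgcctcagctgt
Tkt holds 1 GCGTG and Taldo1 holds 2, and neither holds ACGTG or the antioxidant core. RefSeq gives 7 promoters for the 6 genes, since Pgd has 2. The antioxidant core was found in 1 of the 7 (Pgd) and in 12.4% of all 32851 promoters. ACGTG was found in 0 of 7 against 19.6% of all, and GCGTG in 5 of 7 against 32.4% of all. With either form counted, the shares were 5 of 7 and 43.8%. A match is a run of letters only, and binding was not measured.

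The libraries held 4617509 to 22815830 reads in WT normoxia, where replicate 2 is the deepest, 4049035 to 5657873 in WT OIR, 3391203 to 5528913 in Casp1 KO normoxia and 4502877 to 4849329 in Casp1 KO OIR. A count of 3 reads, the limit that a count of 0 allows, is worth 0.131 to 0.885 CPM, the usual scale of reads relative to the library total, for counting error only. WT OIR replicate 3 differed most from its fellow replicates. The chi-square of its counts, divided by the degrees of freedom, was 14.03 and 13.2 against them, whereas all other pairs of replicates ran from 3.48 to 9.34. Results that rest on it are given with and without it. The 6 libraries labelled WT held 7 reads of Casp1 in all and the 6 labelled Casp1 KO held 126, which goes against the label, although 3′ reads outside a deleted part would check nothing. The group names below are therefore those of the labels. Rod markers (10 of 10 with reads, summed level 44180 to 53670 CPM over all libraries) were abundant throughout, which fits the label retina.

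All 6 genes had reads in every library and passed both filters on low counts. Levels are in CPM scaled by TMM, the trimmed mean of M-values method. These 3′ libraries give about 1 read per transcript whatever its length, so CPM needs no correction for length. The annotation used and the treatment of multimapping reads are not known, so some genes may have lost reads. Gapdh, for example, was at 51.9 CPM in WT normoxia beside 1703 for Aldoa, and the cause was not tested. The order of the members below is therefore one of counted reads. Tkt was the most abundant member, with a median of 218.5 CPM over the 12 libraries and rank 863 of the 24484 genes with reads. Taldo1 followed at 145 CPM and Pgls at 111 CPM. Pgd had a median of 52.0 CPM. Rpia and Rpe were the scarcest, at 9.97 and 8.09 CPM, and their levels rested on 28 to 190 and 15 to 258 reads per library. The ranges over the 12 libraries of Tkt and Taldo1 overlapped, as did those of Taldo1 and Pgls, and of Rpia and Rpe, whereas the lowest Pgls library (83.1 CPM) lay above the highest Pgd library (60.6 CPM), and the lowest Pgd library (41.5 CPM) above the highest Rpia library (15.7 CPM).

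Transketolase differed with OIR in opposite directions in the 2 genotypes. In WT normoxia Tkt was at 262, 264 and 206 CPM in replicates 1 to 3, and in WT OIR at 156, 157 and 119 CPM. In Casp1 KO normoxia it was at 231, 178 and 198 CPM, and in Casp1 KO OIR at 251.2, 286 and 268 CPM. Every WT OIR library lay below every library of the other 3 groups, and every Casp1 KO OIR library lay above every Casp1 KO normoxia library. The WT normoxia libraries overlapped both Casp1 KO groups.

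The group means of Tkt were 244 ± 33.1 CPM in WT normoxia, 144 ± 21.5 in WT OIR, 202.5 ± 26.8 in Casp1 KO normoxia and 268 ± 17.3 in Casp1 KO OIR (SD, n = 3 each). In order of level, Casp1 KO OIR and WT normoxia overlapped as neighbours, as did WT normoxia and Casp1 KO normoxia, and WT OIR stood alone at the bottom. The fitted log2 fold change of Tkt with OIR was -0.78 in WT (SE 0.135) and 0.42 in Casp1 KO (SE 0.0915). Between genotypes, Casp1 KO against WT, it was -0.26 in normoxia (SE 0.0899) and 0.90 in OIR (SE 0.136). The difference between the OIR effects, on which the gene was chosen, was 1.17 on the log2 scale (SE 0.164). Of the other genes, which the choice did not rest on, Taldo1 was at 0.40 (SE 0.176), Pgd at 0.13 (SE 0.241), Pgls at -0.02 (SE 0.188), Rpe at -0.25 (SE 0.569) and Rpia at -0.41 (SE 0.499). Over all genes the median of this difference was -0.04, and 1.13% of 24484 genes passed an adjusted p of 0.05 in edgeR's quasi-likelihood test. Without WT OIR replicate 3 the Tkt values were -0.65 in WT, 0.79 between genotypes in OIR and 1.05 for the difference between the OIR effects.

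**Figure D1:**
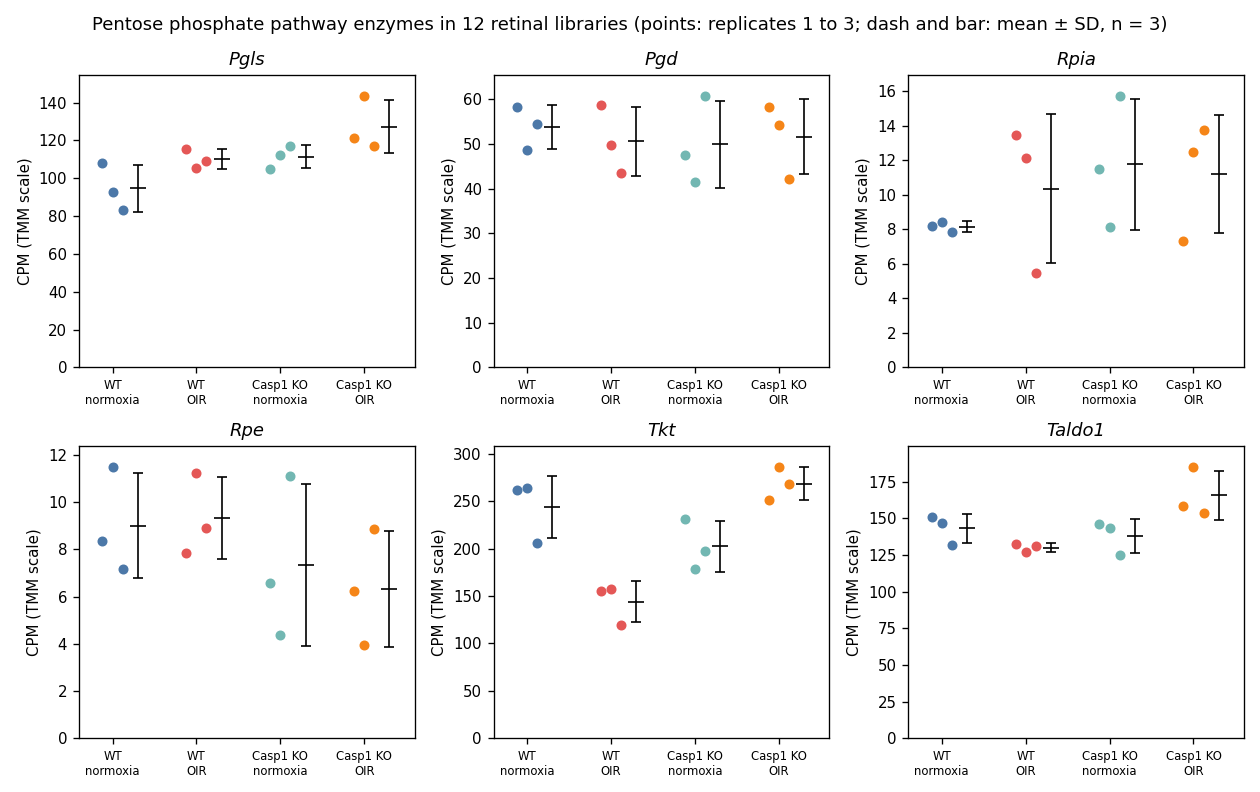
TMM-scaled CPM (linear axes from 0) of the 6 enzymes by group, with 1 point per library and the mean ± SD of 3 libraries beside it. Tkt in WT OIR sits between 119 and 157 CPM, below all other groups, and Taldo1 in Casp1 KO OIR sits between 154 and 185 CPM, above all others.

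The average effect of OIR over both genotypes and the average effect of genotype over both conditions were fitted to all 12 libraries, 3 in each group. With groups of equal size, the fitted values of these averages are nearly free of the contrast on which Tkt was chosen. The fits hold no term for that contrast, so it adds to the residual spread of Tkt. The SE and p-values of Tkt are therefore not free of the choice and are given as a description. Tkt did not pass the adjusted threshold in either. The OIR effect was -0.18 on the log2 scale (SE 0.0901, edgeR quasi-likelihood unadjusted p = 0.0456, adjusted p = 0.340), where 4.89% of all genes passed the adjusted and 14.2% the unadjusted threshold. Without WT OIR replicate 3 it was -0.05. The genotype effect was 0.31 higher in the libraries labelled Casp1 KO (SE 0.0901, edgeR quasi-likelihood unadjusted p = 0.000551, adjusted p = 0.111), where 0.335% of all genes passed the adjusted and 6.79% the unadjusted threshold. Over all alternatives the adjusted p ran from 0.00909 to 0.726. Leaving out WT normoxia replicate 1 or 2, or Casp1 KO normoxia replicate 2 or 3, brought that genotype effect under the threshold, at 0.40 to 0.42 with adjusted p = 0.00909 to 0.034. Without WT OIR replicate 3 it was 0.18 (adjusted p = 0.506). Fits with a library left out have groups of unequal size, so their averages hold part of the contrast on which Tkt was chosen. Their values are a description and not a test free of that choice.

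Taldo1, the partner of transketolase in the non-oxidative branch, differed less. It was at 151, 147 and 132 CPM in WT normoxia and at 132, 127 and 131 CPM in WT OIR. In Casp1 KO normoxia it was at 146, 144 and 125 CPM, and in Casp1 KO OIR at 158.5, 185 and 154 CPM. The Casp1 KO OIR libraries lay above the libraries of each other group without overlap, and the other 3 groups overlapped each other. With OIR, the log2 fold change was -0.15 in WT (SE 0.141, adjusted p = 0.669 by edgeR's quasi-likelihood test) and 0.28 in Casp1 KO (SE 0.104, unadjusted p = 0.00802, adjusted p = 0.122). Between genotypes it was 0.35 in OIR (SE 0.142, unadjusted p = 0.0141, adjusted p = 0.377) and -0.05 in normoxia (adjusted p = 0.907), so no Taldo1 difference passed the threshold.

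Pgls, the lactonase of the oxidative branch, was at 108, 92.7 and 83.1 CPM in WT normoxia and at 116, 105 and 109 CPM in WT OIR. In Casp1 KO normoxia it was at 105, 112 and 117 CPM, and in Casp1 KO OIR at 121, 143 and 117 CPM. The WT groups overlapped. Casp1 KO OIR lay above Casp1 KO normoxia by a narrow margin, and above WT OIR, without overlap. The log2 fold change with OIR was 0.21 in both genotypes (adjusted p = 0.572 in WT and 0.413 in Casp1 KO by edgeR), with 95% intervals of -0.09 to 0.50 and -0.01 to 0.43. Over both genotypes it was 0.20 (SE 0.101, unadjusted p = 0.0419, adjusted p = 0.326). The average difference between genotypes was 0.22, with an adjusted p of 0.658 by edgeR. Pgls thus showed the same fitted OIR difference in both genotypes, unlike Tkt, with none of these values past the threshold.

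Pgd, the dehydrogenase after it, had overlapping groups in every comparison, with means of 53.8 ± 4.84 CPM in WT normoxia, 50.6 ± 7.71 in WT OIR, 49.9 ± 9.75 in Casp1 KO normoxia and 51.6 ± 8.39 in Casp1 KO OIR (SD, n = 3 each). Its OIR log2 fold change was -0.10 in WT (95% interval -0.45 to 0.26) and 0.06 in Casp1 KO (-0.26 to 0.37). Rpia ran from 5.45 to 15.7 CPM and Rpe from 3.94 to 11.5 CPM over the 12 libraries, and for both the groups overlapped in all comparisons. The OIR log2 fold change of Rpia was 0.32 in WT (95% interval -0.41 to 1.05) and -0.06 in Casp1 KO (-0.70 to 0.58), and that of Rpe was 0.02 in WT (-0.71 to 0.75) and -0.20 in Casp1 KO (-1.04 to 0.63). The intervals of Rpia and Rpe, the members with the fewest reads, were the widest of the 6, so differences smaller than these were not detectable at this depth.

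**Figure D2:**
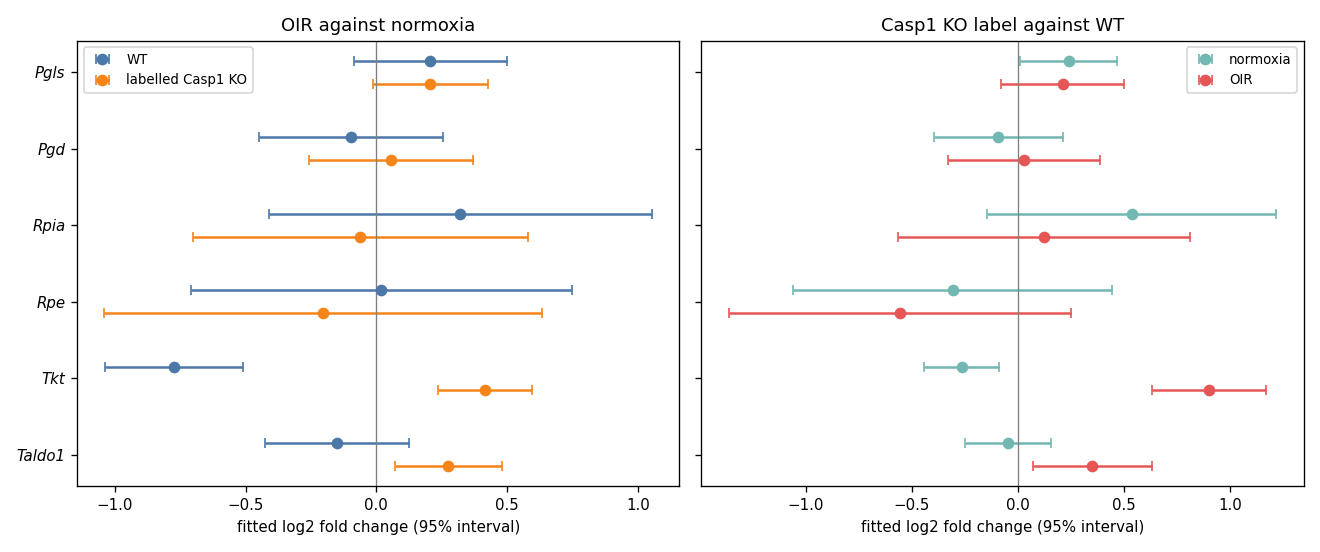
Fitted log2 fold change of each enzyme (point) with its 95% interval (bar), for OIR against normoxia in each genotype (left) and for Casp1 KO against WT in each condition (right). Tkt lies at -0.78 in WT and 0.42 in Casp1 KO, on opposite sides of 0, and the Pgls values for OIR coincide at 0.21.

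Counted over the 5 genes other than Tkt, 0 passed an adjusted p of 0.05 in edgeR's quasi-likelihood test in any of the 4 comparisons of 2 groups or the 2 averages over groups, and 0 did so in DESeq2. The shares of all genes that passed were 3.88% for OIR in WT, 4.64% for OIR in Casp1 KO, 1.04% between genotypes in normoxia and 0.575% between genotypes in OIR. At an unadjusted p under 0.05, 0 of the 5 passed for OIR in WT, and 1 of the 5 in each of the others: Taldo1 for OIR in Casp1 KO and between genotypes in OIR, and Pgls between genotypes in normoxia and in both averages. Of all genes, 12.6%, 13.6%, 8.63% and 8.36% passed the unadjusted threshold in those 4 comparisons, in the same order. With Tkt included, the libraries of the 2 groups did not overlap for 1 of 6 genes for OIR in WT, 3 of 6 for OIR in Casp1 KO, 0 of 6 between genotypes in normoxia and 3 of 6 in OIR. The same was true of 16.7%, 17.1%, 12.4% and 11.9% of all genes. For OIR in WT the gene was Tkt, and in each comparison with 3 genes they were Tkt, Taldo1 and Pgls. The median log2 fold change of the 6 genes was -0.04 for OIR in WT and 0.13 in Casp1 KO, against 0.04 and -0.002 over all genes tested. Tkt was chosen on these comparisons, so the counts and medians that include it are a description and not a test.

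The balance among the 6 transcripts differed between groups, mostly through Tkt. Reads of Tkt made up 41.99% to 46.1% of the reads of the 6 enzymes in WT normoxia, 28.5% to 33.9% in WT OIR, 36.5% to 42.2% in Casp1 KO normoxia and 41.7% to 44.4% in Casp1 KO OIR. The summed level of Pgls and Pgd, the oxidative enzymes described here, was 148 ± 15.6 CPM in WT normoxia, 161 ± 11.9 in WT OIR, 161 ± 14.1 in Casp1 KO normoxia and 179 ± 19.2 in Casp1 KO OIR (SD, n = 3 each). For the non-oxidative enzymes the sums were 404 ± 44.8, 294 ± 25.3, 360 ± 31.7 and 451.5 ± 32.5 CPM in the same order. The ratio of non-oxidative reads to those of Pgls and Pgd was 2.56 to 3.04 in WT normoxia and 1.73 to 1.98 in WT OIR, which did not overlap, and 1.97 to 2.59 and 2.36 to 2.79 in the Casp1 KO groups, which did. Tkt over Taldo1 was 1.56 to 1.80 in WT normoxia, 0.909 to 1.24 in WT OIR, 1.24 to 1.59 in Casp1 KO normoxia and 1.55 to 1.74 in Casp1 KO OIR. Since these quantities contain Tkt, they are a description and were not tested.

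**Figure D3:**
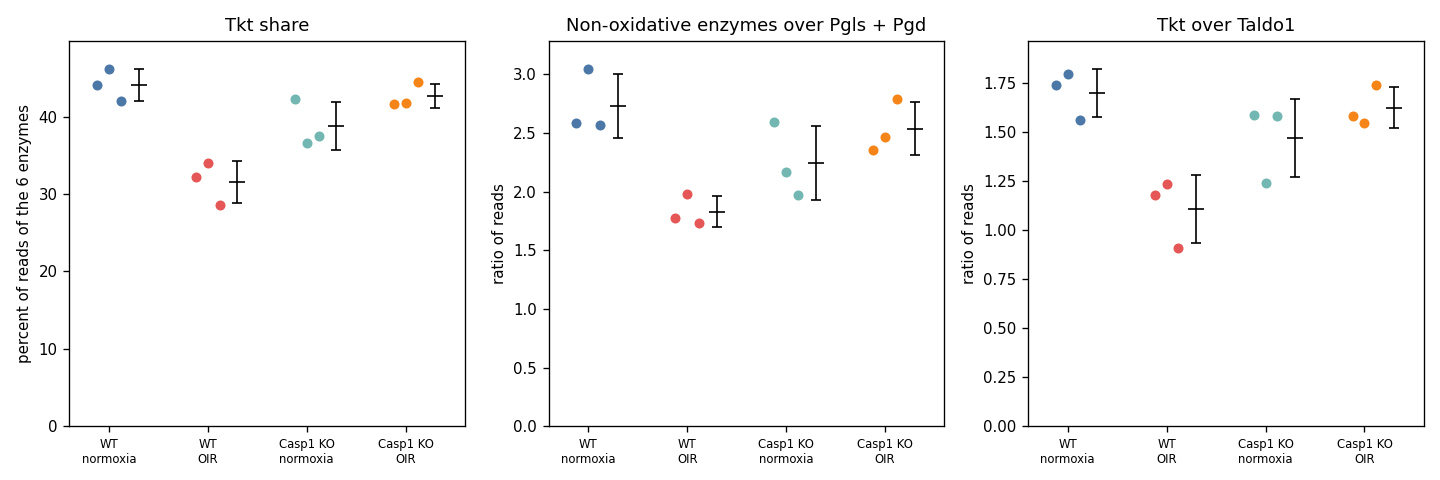
Share of Tkt among the reads of the 6 enzymes in percent (left), ratio of non-oxidative reads to those of Pgls and Pgd (middle) and ratio of Tkt to Taldo1 reads (right), with 1 point per library and the mean ± SD of 3 libraries. The WT OIR libraries have the lowest Tkt shares, 28.5% to 33.9%.

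Related genes took few reads. Tktl1, a transketolase-like gene, had 2 reads in all, and Tktl2 had 24 reads in WT normoxia, of which 21 were in the deep replicate 2, and 2 reads in Casp1 KO OIR. H6pd, an enzyme of the endoplasmic reticulum, had 42 reads in WT normoxia, 49 in WT OIR, 58 in Casp1 KO normoxia and 37 in Casp1 KO OIR, at 0 to 6.97 CPM a library. Its unadjusted p was 0.0126 between genotypes in normoxia (adjusted p = 0.346 by edgeR) and 0.0374 for the difference between the OIR effects (adjusted p = 0.471). Tkt itself had at least 614 reads in every library.

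The genes whose pattern over the 12 libraries lay closest to that of Tkt were Eln, Gatb, Plppr3, Arfrp1 and Marcksl1. Closeness is the root mean square difference of log2 CPM after centring each gene on its own mean, over 14287 genes kept by edgeR's expression filter. It was 0.133 for Eln, 0.141 for Gatb, 0.178 for Plppr3, 0.192 for Arfrp1 and 0.194 for Marcksl1, where the spread of Tkt itself about its mean was 0.377. Eln, which encodes elastin, had means of 11.45 ± 2.08, 6.50 ± 1.09, 10.6 ± 2.75 and 12.7 ± 1.47 CPM, in the order WT normoxia, WT OIR and then Casp1 KO in normoxia and in OIR. Gatb, a subunit of the mitochondrial glutamyl-tRNA amidotransferase, had 21.5 ± 2.82, 12.3 ± 0.812, 16.1 ± 2.32 and 19.6 ± 0.630 CPM. Among the pathway's own genes, Taldo1 ranked 222 of 14287 by this measure (0.281). Pgd (2288), Pgls (2605), Rpia (7128) and Rpe (10467) ranked far lower, at 0.384, 0.393, 0.500 and 0.658. A gene without any change would be at 0.377, so these were no closer to Tkt than that. The measure also holds counting error, which is largest for Rpia and Rpe.

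**Figure D4:**
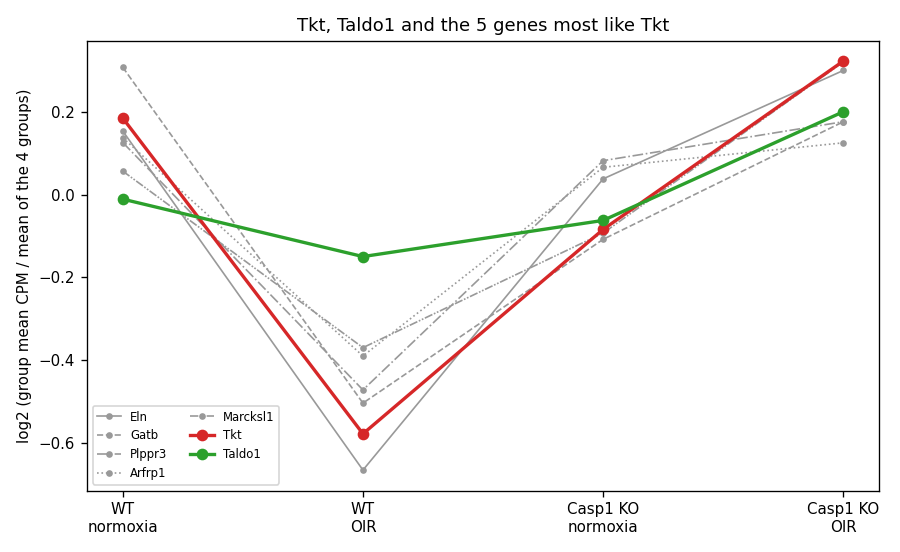
Group mean CPM of each gene divided by its mean over the 4 groups, on a log2 axis, for Tkt and Taldo1 (coloured) and the 5 genes most like Tkt (grey). All 7 lines have their lowest point in WT OIR. Tkt was chosen on its OIR contrast and the 5 grey genes for their likeness to Tkt, so the low point they share follows from the choice.

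Genes that feed or use the pathway were counted from lists. Of 22 glycolysis genes, 1 rose and 4 fell with OIR in WT (20 tested), whereas 7 rose and 0 fell in Casp1 KO (21 tested). Between genotypes, Casp1 KO against WT, 0 rose and 3 fell in normoxia (21 tested) and 2 rose and 1 fell in OIR (20 tested). Of all genes, 3.88%, 4.64%, 1.04% and 0.575% passed in these 4 comparisons, in the same order, and 1.13% for the difference between the OIR effects. The medians of the log2 fold change with OIR were -0.09 in WT and 0.19 in Casp1 KO, beside 0.04 and -0.002 over all genes. For 4 of 21 tested (Slc2a1, Pfkl, Pfkm and Tpi1) the OIR effect was higher in Casp1 KO than in WT by the test of the difference itself. The 4 that fell with OIR in WT were Pfkm, Ldhb, Hk2 and Aldoc. These and Tpi1 were named after their values were seen. Over all lists together, called genes numbered 6 for OIR in WT (3 without WT normoxia replicate 2 or 3, 11 without WT OIR replicate 3), 7 for OIR in Casp1 KO (5 to 8 with a library left out), 3 between genotypes in OIR (0 to 6) and 5 for the difference between the OIR effects (1 to 9). Slc2a1, the glucose transporter that brings in the substrate, was one of them. Its means were 149 ± 18.8 CPM in WT normoxia, 161 ± 28.2 in WT OIR, 124 ± 11.8 in Casp1 KO normoxia and 227.0 ± 4.65 in Casp1 KO OIR (SD, n = 3). It rose with OIR by 0.89 in Casp1 KO (adjusted p = 3.9e-16 by edgeR), against 0.10 in WT (adjusted p = 0.766), and the difference was 0.76 (SE 0.172, adjusted p = 0.00259). These Slc2a1 calls held under all alternatives, the difference with adjusted p up to 0.0399.

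The subunits of phosphofructokinase, which commits sugar to glycolysis, differed among themselves. Pfkl, the liver-type subunit, rose with OIR by 0.59 in Casp1 KO (adjusted p = 5.6e-08 by edgeR) and was at -0.02 in WT, and the difference passed the test (0.59, adjusted p = 0.0354) but not with a stricter filter on low counts (0.0748) or with 1 of 7 libraries left out (0.0651 to 0.244). Pfkm, the muscle-type subunit, fell in WT by 0.72 (adjusted p = 0.00614), from 59.3 ± 7.42 to 36.2 ± 5.67 CPM (SD, n = 3 each), and was at 0.19 in Casp1 KO (adjusted p = 0.607). The Pfkm difference passed in edgeR (0.87, adjusted p = 0.0331) but not in DESeq2 (0.0709), with the stricter filter (0.0793) or with 1 of 7 libraries left out (0.0681 to 0.178). Pfkp, the platelet-type subunit, rose with OIR in both genotypes, by 0.66 in WT (adjusted p = 1.7e-05) and by 0.49 in Casp1 KO (adjusted p = 3.3e-06). The WT groups of Pfkp overlapped, the WT call was lost in DESeq2 (0.492) and with the stricter filter (0.114), and without WT OIR replicate 3 the WT value was 0.98. The Pfkp difference between the OIR effects was -0.19 (adjusted p = 0.775), and -0.52 without that library (adjusted p = 0.00677).

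The aldolases, which split fructose bisphosphate, also differed. Aldoa was at 1703 ± 92.1 CPM in WT normoxia, 1728 ± 140 in WT OIR, 1362 ± 63.2 in Casp1 KO normoxia and 1848 ± 195 in Casp1 KO OIR. In normoxia it was lower in Casp1 KO than in WT (log2 fold change -0.32, adjusted p = 5.3e-05 by edgeR). From that lower start it rose with OIR by 0.45 in Casp1 KO (adjusted p = 1.5e-10 by edgeR) against 0.01 in WT. The difference between these OIR effects missed the threshold (adjusted p = 0.0601). It passed in DESeq2 (0.0470), without WT OIR replicate 3 (0.00146), and without WT normoxia replicate 3, WT OIR replicate 1 or Casp1 KO OIR replicate 3 (0.0212 to 0.0447). Aldoc fell in WT by 0.50 (adjusted p = 0.00420) and was at -0.08 in Casp1 KO. Hk2, a hexokinase, which makes glucose 6-phosphate, fell in WT by 0.52 (adjusted p = 0.00652) and was at 0.10 in Casp1 KO. Ldhb, a lactate dehydrogenase subunit, fell in WT by 0.65 (adjusted p = 0.00236) and was at -0.21 in Casp1 KO. The differences between these OIR effects did not pass for Aldoc (0.39, adjusted p = 0.278), Hk2 (0.59, adjusted p = 0.0501) or Ldhb (0.41, adjusted p = 0.495). Tpi1, triosephosphate isomerase, had a difference of 0.54 (adjusted p = 0.0498), which was lost with the stricter filter (0.0557). The WT calls of Pfkm, Ldhb, Hk2 and Aldoc each held without WT OIR replicate 3. They were lost without WT normoxia replicate 1 (Pfkm), replicate 2 (Hk2 and Aldoc) or replicate 3 (Pfkm, Ldhb and Aldoc), or without WT OIR replicate 2 (Ldhb), with adjusted p up to 0.192. These 4 genes were named because they were called lower with OIR in WT, so the direction they share with Tkt follows from the naming. Hk1, Gpi1 and Ldha, also named after their values were seen, were called higher with OIR in Casp1 KO (0.32, 0.28 and 0.36). In WT they were at 0.31, -0.07 and -0.04, and none of these was called. The fitted OIR differences of Slc2a1, Pfkl and Aldoa in WT were near 0. Hk2 was at 152.6 ± 9.23 CPM in WT OIR, beside 146.2 ± 7.09 in Casp1 KO normoxia and 154.9 ± 16.5 in Casp1 KO OIR. Its highest group was WT normoxia (216.3 ± 25.6 CPM), and Casp1 KO against WT in normoxia was at -0.565 (adjusted p = 2.4e-06 by edgeR).

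Consumers of NADPH moved in few places. Of 18 genes of glutathione and thioredoxin metabolism, 0 passed for OIR in Casp1 KO (unadjusted 1, DESeq2 0), where 4.64% of all genes did. In WT, where 3.88% of all genes passed, 1 of the 18 fell with OIR. That gene was Prdx6, the peroxiredoxin that reduces phospholipid peroxides, with means of 102 ± 11.7 CPM in WT normoxia, 71.6 ± 8.59 in WT OIR, 78.9 ± 11.6 in Casp1 KO normoxia and 94.45 ± 3.52 in Casp1 KO OIR. Its log2 fold change with OIR was -0.53 in WT (SE 0.155, adjusted p = 0.0239 by edgeR) and 0.27 in Casp1 KO (adjusted p = 0.302), and the difference between them was 0.77 (SE 0.201, adjusted p = 0.0176). Both Prdx6 calls were lost when some single libraries were left out (WT normoxia replicate 1 or 2 and WT OIR replicate 1, among others), with adjusted p up to 0.192 and 0.137. Its means were thus ordered WT normoxia, Casp1 KO OIR, Casp1 KO normoxia and WT OIR, with the same group lowest as for Tkt.

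Other sources and users of the pathway's products passed the test in 1 place. Of 13 genes of pentose and phosphoribosyl pyrophosphate metabolism, 12 had reads, and 1 passed for OIR over both genotypes, where 4.89% of all genes did. Pgm1, a phosphoglucomutase, rose with OIR over both genotypes by 1.20 (SE 0.385, adjusted p = 0.0398), on 6 to 52 reads a library, and lost the call without any 1 of 6 libraries (adjusted p up to 0.168). None of 11 other sources of NADPH passed for OIR in WT or in Casp1 KO (edgeR 0, unadjusted 1 and 2, DESeq2 0), where 3.88% and 4.64% of all genes did. The same held for 5 genes of thiamine uptake and activation, which supply the cofactor of transketolase (edgeR 0, unadjusted 0, DESeq2 0), and for 3 genes of the polyol pathway (edgeR 0, unadjusted 0, DESeq2 0).

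In whole retina, fewer cells of a type and less RNA per cell cannot be told apart, and several cell type markers moved in the groups in which Tkt did. The markers of pigment epithelium, lens, red cells and oligodendrocytes were listed for cells outside the retina that a dissection can carry. Summed levels of 10 markers of Müller glia, all with reads, were 3543 to 3641 CPM in WT normoxia, 3069 to 3243 in WT OIR, 2567 to 2660 in Casp1 KO normoxia and 3911 to 4110 in Casp1 KO OIR. Of these 10 markers, 2 rose and 3 fell with OIR in WT, 9 rose in Casp1 KO, and 7 were lower in Casp1 KO than in WT normoxia. Of all genes, 3.88%, 4.64% and 1.04% passed in these comparisons. For the difference between the OIR effects, 6 of the 10 were higher in Casp1 KO and 0 lower (median 0.81), where 1.13% of all genes passed. The summed level was lower with OIR in WT and higher with OIR in Casp1 KO, as Tkt was. It was lowest in Casp1 KO normoxia, and Tkt was lowest in WT OIR. Markers of retinal pigment epithelium (10 of 10 with reads) were at 1233 to 1372 CPM in 3 groups and at 1809 to 1920 CPM in Casp1 KO OIR, and lens markers (9, of which 1 was at 0 in each WT group) were at 247 to 537 CPM in 3 groups and at 708.5 to 782 CPM in Casp1 KO OIR. The difference between the OIR effects was called higher in Casp1 KO for 3 of 10 pigment epithelium and 5 of 9 lens markers, and lower for 0. The part of these cell types, or of tissue carried over in dissection, in the level of Tkt or Taldo1 was not tested.

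Of 8 oligodendrocyte markers, 2 were at 0 in Casp1 KO normoxia. Their summed level was 253 to 313 CPM in WT normoxia and 38.5 to 71.3 CPM in the other 3 groups. For the difference between the OIR effects, 6 of the 8 were higher in Casp1 KO and 0 lower, where 1.13% of all genes passed. Ganglion cell markers (8 of 8 with reads) were at 2695 to 3160 CPM in both normoxia groups and 1324 to 1660 CPM in both OIR groups. Microglia markers (8 of 8) were at 49.96 to 74.1 and 98.05 to 119 CPM, in the same order. In both lists, 0 markers passed for the difference between the OIR effects. Red cell markers ranged from 90.9 to 398 CPM within WT OIR alone, and from 121 to 167 CPM in the other groups. Endothelial markers (8 of 8) were at 126 to 212 CPM over all libraries. For the difference between the OIR effects, 2 of 7 red cell markers and 1 of 8 endothelial markers were lower in Casp1 KO, and 0 higher. The part of these cell types, or of carried-over tissue, in the level of Tkt was likewise not tested.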

How the data were processed

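Retinal RNA was made into Lexogen QuantSeq 3′ mRNA libraries and sequenced by the authors, who aligned the reads to mm10 with STAR (2.7.5a in the submitters' processing notes) and tabulated them per gene with HTSeq (0.6.1). The deposited table holds whole-number counts per gene symbol for 12 libraries, without normalization. Which annotation and strand setting the counting used, and how multimapping reads were treated, is not given in the sources used here. The table lists 35976 genes, of which 24484 had at least 1 read, and every column was mapped to a sample by its label.

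The members and the lists of other genes and markers were chosen with earlier results of these data known. Of the 7 members, 1 is not reported here, and the sums and counts leave it out. Counts were fitted in R 4.3.3 with edgeR 4.0.16 (TMM, a minimum of 1 count summed over the fitted libraries, the quasi-likelihood functions glmQLFit and glmQLFTest, Benjamini-Hochberg adjustment over all genes tested, threshold 0.05). Each comparison of 2 groups used its own 6 libraries, and the averages and the difference between OIR effects used all 12. Standard errors were derived from the fold change (prior count 0.125) and the test statistic, and the 95% intervals from them. Single values were compared by exact two-sided permutation tests of CPM over 20 assignments, whose smallest p is 0.1. The likeness to Tkt used log2 CPM computed with a prior count of 2. In each list, up to 4 genes called in at least 1 fit were named, with the paralogs and Casp1. Further glycolysis genes were named after their values were seen. These were called lower with OIR in WT, higher with OIR in Casp1 KO, or for the difference between the OIR effects. Promoters came from RefSeq. The fits were tested on simulated data. Alternatives were DESeq2 size factors, library size alone, DESeq2 1.42.0, filterByExpr, all 12 libraries in one fit, the replicate number as a block, and each library left out in turn.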

Additional observations from a re-analysis of the deposited data

Results flagged for a closer look

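Tkt had a difference between the OIR effects of the 2 genotypes of 1.17 on the log2 scale, from -0.78 in WT to 0.42 in Casp1 KO. It is listed because the effects differ between genotypes, and since the gene was chosen on this contrast the value is a description with no test. Prdx6 (0.77), Slc2a1 (0.76) and Pfkl (0.59) are listed because the same difference passed edgeR's quasi-likelihood test, with adjusted p = 0.0176, 0.00259 and 0.0354, and so did Pfkm (0.87, adjusted p = 0.0331) and Tpi1 (0.54, adjusted p = 0.0498). Of these 5, the Slc2a1 call alone held under all alternatives.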

How the results depend on the processing

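Tkt kept its direction in all 7 contrasts under all alternatives, with ranges over left-out libraries of -0.88 to -0.65 for OIR in WT, 0.33 to 0.52 for OIR in Casp1 KO, 0.79 to 0.97 between genotypes in OIR and 1.05 to 1.30 for the difference between the OIR effects. Members called between genotypes over both conditions numbered 0 to 1 with a library left out (Tkt, in fits that hold part of the contrast on which it was chosen). Genes with a called difference between OIR effects numbered 277, 139 with filterByExpr and 174 to 597 with a library left out (597 without WT OIR replicate 3). Genes called numbered 886 for OIR in WT (586 to 1074 over the settings that keep all libraries), 1038 in Casp1 KO (642 with all 12 libraries in one fit), 233 between genotypes in normoxia (109 with all 12, 444 in DESeq2, 128 to 199 with a library left out, the lowest without Casp1 KO normoxia replicate 3 and 143 without replicate 2), 131 in OIR (16 with filterByExpr, 82 in DESeq2, 255 with all 12, 47 to 815 with a library left out) and 82 over both conditions (19 with filterByExpr, 52 in DESeq2, 44 to 246 with a library left out, 246 without WT OIR replicate 3). With a library left out, values not called with all libraries changed sign: Pgd for OIR in WT (-0.22 to 0.007), in Casp1 KO (-0.061 to 0.22) and over both (-0.077 to 0.040), and between genotypes in normoxia (-0.25 to 0.014), in OIR (-0.057 to 0.16) and over both (-0.10 to 0.024). Rpe did so for OIR in WT (-0.13 to 0.26), in Casp1 KO (-0.53 to 0.21), over both (-0.19 to 0.10) and in the difference (-0.55 to 0.16), and Rpia for OIR in Casp1 KO (-0.26 to 0.19) and between genotypes in OIR (-0.18 to 0.36). Taldo1 (-0.10 to 0.020) did so between genotypes in normoxia, Pgls in the difference (-0.12 to 0.082), Aldoa (-0.048 to 0.073) and Pfkl (-0.12 to 0.070, and 0.0092 with library size alone) for OIR in WT, Hk2 for OIR in Casp1 KO (-0.0043 to 0.15), and Pfkp in the difference (-0.52 to 0.029, where -0.52, without WT OIR replicate 3, was called). The Hk2 difference passed in DESeq2 (adjusted p = 0.0363), and the Tpi1 difference was lost under DESeq2 size factors, library size alone, filterByExpr and most left-out libraries (adjusted p up to 0.170). The causes were not tested. Same-numbered libraries did not deviate together (correlations of -0.028 to 0.035). That shows no pairing by number but cannot exclude one, and the labels state none. With the replicate number as a block Tkt was at -0.77 in WT, 0.42 in Casp1 KO and 1.17 for the difference. The block brought the Aldoa difference under the threshold (adjusted p = 0.0268) and took the called genes of the lists between genotypes in OIR from 3 to 0. Depth limits Rpia and Rpe most.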
